A study of Mus musculus with 8 samples.

Results

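Matrix metalloproteinases and their tissue inhibitors were followed across 4 groups of mouse embryonic stem cell arrays that differed at Gtf2i or Hprt. The members were 6 protease genes (Mmp1a, Mmp2, Mmp3, Mmp10, Mmp13 and Mmp14) and 3 inhibitor genes (Timp1, Timp2 and Timp3). They were found through the platform annotation as every probe set carrying one of these symbols alone, which gave 20 probe sets of 45101, or 9 genes of 18193. The 8 arrays came in groups of 2, called biological replicates in the labels with no word on separate cultures, and the p-values therefore speak of array-to-array spread alone. For the wild-type group the labels named neither a mutation nor the line. The exon 2 mutant, made by gene targeting in R1 stem cells, had the genotype Δexon2/+ at Gtf2i. The Hprt knockout was labelled HPRT -/- with no Gtf2i mutation. The trap line was a gene-trap derivative of AB2.2 stem cells, labelled HPRT -/- and GTF2I +/-, so it shared the Hprt label with the knockout. All 4 groups were grown in serum replacement medium with leukaemia inhibitory factor on a monolayer of feeder cells. Each of the 4 groups was a single line and no label gave a batch, so line, batch and mutation cannot be told apart.

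Matrix metalloproteinases are zinc enzymes that cut proteins of the extracellular matrix and many secreted or membrane proteins. Most are secreted as inactive precursors whose propeptide blocks the zinc site until it is removed. The inhibitors, called TIMPs, bind the active enzymes tightly. Fibroblasts are a main source of both in connective tissue, and the transcription factor AP-1, a dimer of FOS and JUN proteins, is known to drive several of the protease genes after growth factor or cytokine signals. Gtf2i encodes the transcription factor TFII-I, and Hprt encodes a purine salvage enzyme.

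Values are log2 intensities, and differences are log2 differences ± standard error between the means of 2 arrays, from a limma fit across 13812 tested genes with Benjamini-Hochberg adjusted p-values. A gene is represented by its brightest probe set. The filter level for testing was the 40th percentile of each array, on average log2 5.36, and signals under it are close to the array background. Array medians lay between 5.96 and 6.02, and the 2 arrays of a group differed with an SD of 0.130 to 0.169 over the tested genes. Hprt averaged 12.08 in wild-type, 10.04 in the Hprt knockout, 10.74 in the trap line and 12.25 in the exon 2 mutant, so it was lower in both groups labelled as Hprt mutant. Gtf2i averaged 10.12, 10.90, 10.09 and 10.48 in the same order, and where its probes lie relative to either mutation was not examined. All 12 stem cell markers examined, Pou5f1, Nanog and Sox2 among them, lay above the filter level in every group. Their summed linear intensity was 59630 to 60080 in wild-type and 70140 to 73110 in the exon 2 mutant. It was 71400 to 72740 in the trap line and 78920 to 80520 in the Hprt knockout. Of 28 fibroblast markers 27 were on the array. Their summed linear intensity was 141100 on both wild-type arrays, 87480 to 90110 in the exon 2 mutant, 100500 to 100800 in the trap line and 7342 to 7507 in the Hprt knockout. Lum, Dpt, Ogn and Fap lay below the filter level on both Hprt knockout arrays and none did so in the other groups. Whether this fibroblast marker signal came from the feeder cells alone was not tested. In bulk RNA, fewer feeder cells and less RNA per feeder cell cannot be told apart. The marker signal was lowest in the Hprt knockout, like the members other than Mmp1a. In the trap line it was lower than in wild-type, while some members were higher and others lower there. The part of the fibroblast marker signal in each result was not tested.

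The members other than Mmp1a had their lowest mean in the Hprt knockout. In the other 3 groups they did not follow a common order. Mmp1a, Mmp10, Mmp3, Timp2, Mmp2 and Mmp14 had their highest mean in the trap line, and Mmp13, Timp1 and Timp3 had theirs in wild-type. All 9 passed the filter. Mmp1a passed only through the trap line, where it was high, so a difference of Mmp1a between the trap line and the other groups was built into its selection. For Mmp1a that difference is therefore given as a bound against the filter level with no test, and its order among the other 3 groups is not read. Mmp13 was below the filter level on both Hprt knockout arrays, and the other 7 were above it on all 8 arrays.

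**Figure D1:**
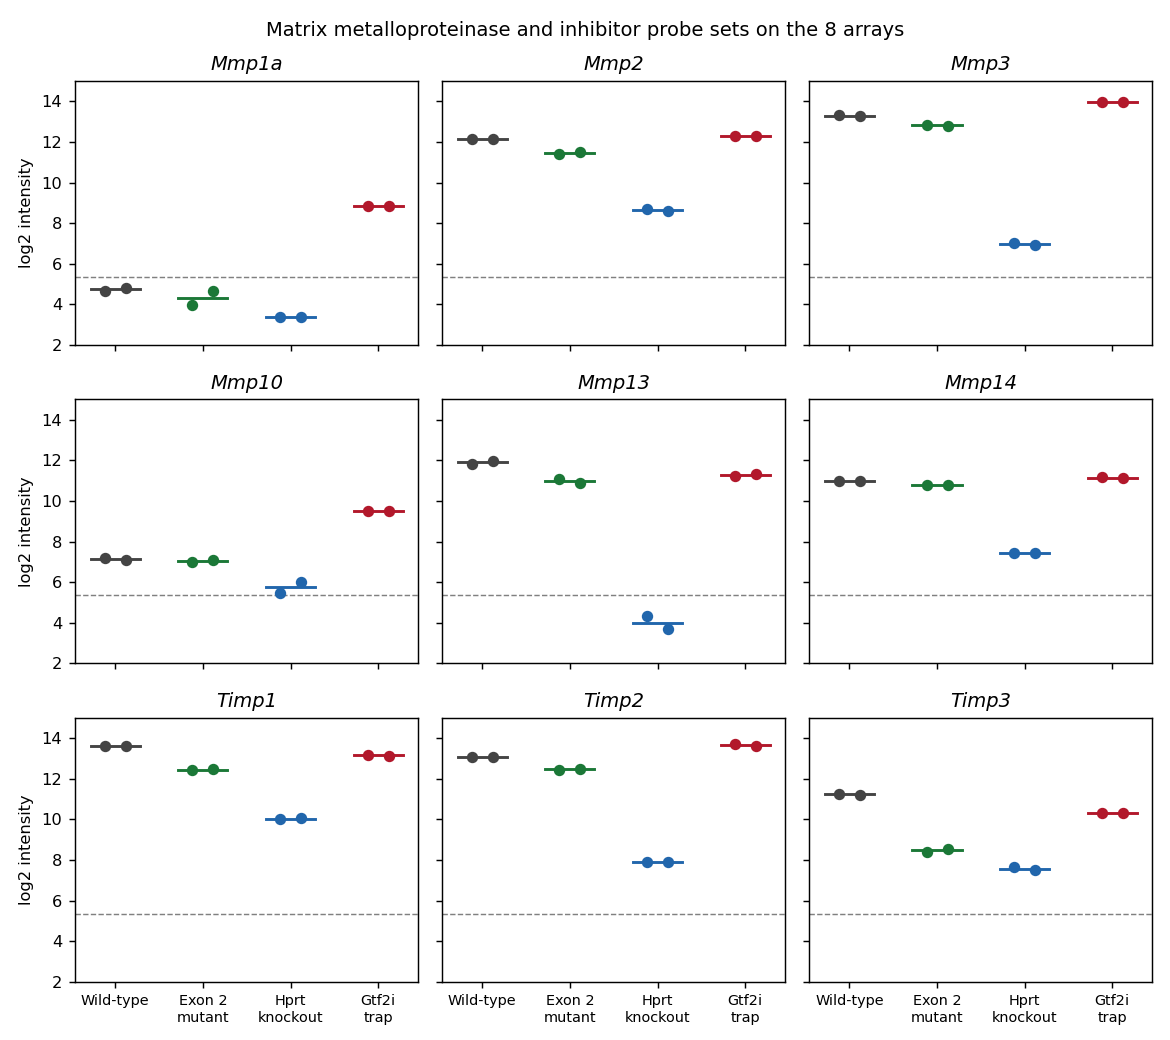
Log2 intensity of the brightest probe set of each member on the 2 arrays of each group (points) with the group mean (bar); the dashed line is the mean filter level of 5.36. Mmp1a rises above the line only in the trap line, the other members are lowest in the Hprt knockout, and Timp3 in the exon 2 mutant lies nearer to the Hprt knockout than to wild-type.

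Mmp13, Mmp3, Mmp1a and Mmp10 lie in a cluster of metalloproteinase genes on chromosome 9. Mmp13 and Mmp1a encode collagenases, which open the collagen triple helix, and Mmp3 and Mmp10 encode stromelysins, which cut proteoglycans, fibronectin and other protease precursors. The bases just before the start of each are shown because they held the AP-1 motif, so its presence in all of them was fixed by this choice. Each sequence is the 150 bases before the start of the gene from RefSeq, build GRCm38.p6, plus strand, 5′ to 3′. Capitals mark TGANTCA, the AP-1 motif, and TATAAA, the letters of the TATA box.
Mmp13, chr9:7272364-7272513: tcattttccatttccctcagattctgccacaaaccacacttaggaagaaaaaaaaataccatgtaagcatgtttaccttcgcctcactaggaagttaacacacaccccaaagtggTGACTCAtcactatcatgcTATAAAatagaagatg
Mmp3, chr9:7445672-7445821: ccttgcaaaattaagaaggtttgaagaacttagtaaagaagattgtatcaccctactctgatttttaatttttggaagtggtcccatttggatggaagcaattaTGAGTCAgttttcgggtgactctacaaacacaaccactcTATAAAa
Mmp1a, chr9:7463991-7464140: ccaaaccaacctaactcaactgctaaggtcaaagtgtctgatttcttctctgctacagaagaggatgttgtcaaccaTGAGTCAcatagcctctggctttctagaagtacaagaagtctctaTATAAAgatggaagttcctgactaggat
Mmp10, chr9:7502192-7502341: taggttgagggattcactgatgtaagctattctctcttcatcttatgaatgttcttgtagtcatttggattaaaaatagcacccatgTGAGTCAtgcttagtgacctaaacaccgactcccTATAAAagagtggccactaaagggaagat

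Each of the 4 windows held TGANTCA once and TATAAA once. TGANTCA began 73 bases before the start in Mmp1a, 63 in Mmp10, 46 in Mmp3 and 35 in Mmp13. TATAAA began 28 bases before the start in Mmp1a, 29 in Mmp10, 7 in Mmp3 and 16 in Mmp13. Whether TATAAA serves as a TATA box at these differing distances, and whether the annotated starts are exact, was not examined. The search covered both strands of the 250 bases before the start, and the motifs did not overlap. RefSeq promoters were matched for 8 of the 9 members, and Mmp14, Timp1, Timp2 and Timp3 held neither motif in that window. Of 32851 windows of this length in the table, 6.75% held TGANTCA, 12.4% held TATAAA and 1.21% held both. These shares are given for description, since the 4 genes lie in the same cluster and cannot count as independent. The ETS core GGAA was found in all 8 windows and in 93.4% of those in the table, so it does not set the members apart. A match of letters describes the sequence and does not show binding.

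The Mmp3 probe set was among the brightest of the members, which ranks signals and not transcript levels. It lay at 13.31 and 13.28 on the wild-type arrays, 13.99 and 13.96 in the trap line, 12.83 and 12.80 in the exon 2 mutant and 7.02 and 6.94 in the Hprt knockout. Every neighbouring pair in the order trap, wild-type, exon 2 mutant and Hprt knockout differed past the threshold. Of all tested genes 41.1%, 55.6% and 61.2% passed in these comparisons, in that order. How many genes passed in all of them was not counted. Mmp13 gave 11.83 and 11.98 in wild-type, 11.23 and 11.35 in the trap line, 11.10 and 10.87 in the exon 2 mutant and 4.32 and 3.70 in the Hprt knockout. The trap line and the exon 2 mutant were neighbours in its order and their difference of 0.31 did not pass (adjusted p = 0.220, or 0.0410 to 0.0411 without an Hprt knockout array).

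Mmp1a behaved differently from Mmp3 and Mmp13. On the wild-type arrays it lay at 4.68 and 4.80, in the exon 2 mutant at 3.99 and 4.67, in the Hprt knockout at 3.37 and 3.39 and in the trap line at 8.86 on both arrays. Only the trap line was above the filter level, so Mmp1a was at least 11.3-fold higher there than in any other group when the filter level stands in for the dim signal. Mmp10 gave 7.18 and 7.09 in wild-type, 9.51 and 9.52 in the trap line, 6.97 and 7.11 in the exon 2 mutant and 5.48 and 6.03 in the Hprt knockout. Wild-type and the exon 2 mutant overlapped for Mmp10 (adjusted p = 0.672), while the trap line stood above both.

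The cluster holds 10 protein-coding metalloproteinase genes, which lie in the order Mmp13, Mmp12, Mmp1b, Mmp3, Mmp1a, Mmp10, Mmp8, Mmp27, Mmp20 and Mmp7. Mmp12, the macrophage elastase gene, averaged 6.92 in wild-type, 8.54 in the trap line, 6.97 in the exon 2 mutant and 4.91 in the Hprt knockout. Mmp1b, a relative of Mmp1a, averaged 4.56, 6.24, 4.02 and 3.75 in the same order and was above the filter level on the 2 trap arrays alone. Mmp12 was highest in the trap line, like Mmp10. Mmp1b, like Mmp1a, passed the filter only through the trap arrays, so its high level there was built into its selection. Whether the probes tell the related transcripts of Mmp1a and Mmp1b, or of Mmp3 and Mmp10, apart was not tested. Mmp8 and Mmp20 were below the filter level on all 8 arrays, Mmp7 lay between 5.54 and 5.71 in the group means, and Mmp27 was not analysed here.

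**Figure D2:**
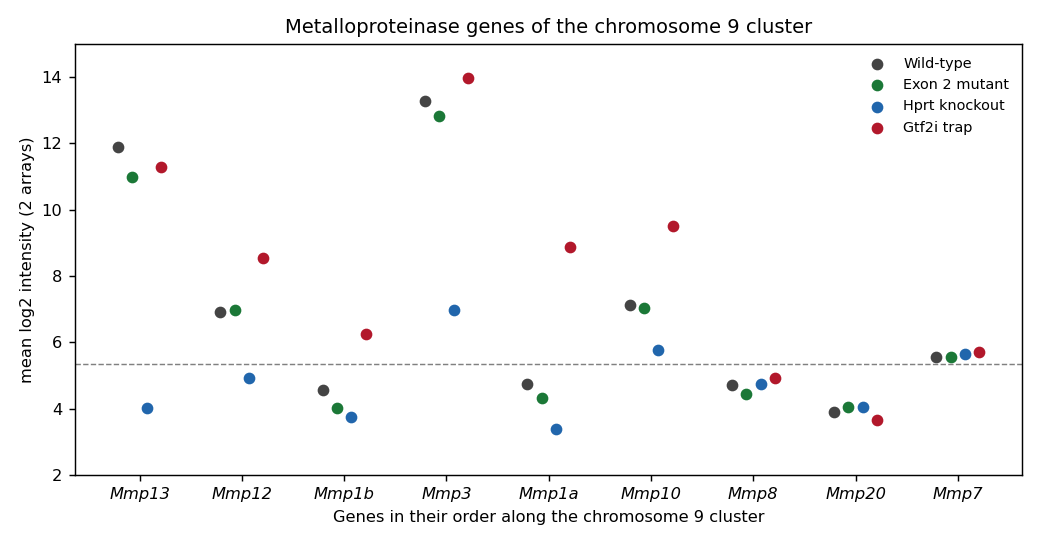
Mean log2 intensity over the 2 arrays of each group for 9 metalloproteinase genes in their order along the chromosome 9 cluster; the dashed line is the mean filter level. Mmp12, Mmp3 and Mmp10 are highest in the trap line, and Mmp1b and Mmp1a rise above the dashed line only there. Mmp8, Mmp20 and Mmp7 lie near or under the dashed line in all groups.

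Mmp2 and Mmp14 lie outside that cluster. Mmp14 is a membrane-bound collagenase that activates the precursor of the gelatinase Mmp2 at the cell surface. Mmp2 lay at 12.15 on both wild-type arrays, 12.31 on both trap arrays, 11.43 and 11.51 in the exon 2 mutant and 8.70 and 8.60 in the Hprt knockout. Mmp14 lay at 10.98 and 11.00 in wild-type, 11.18 and 11.11 in the trap line, 10.79 and 10.77 in the exon 2 mutant and 7.44 on both Hprt knockout arrays. These were the 2 members with the most similar profiles, with a root-mean-square difference of 0.22 between their centred values over the 8 arrays. The pair least alike was Mmp1a and Mmp13, at 2.78, with values below the filter level in both profiles.

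The 3 inhibitors differed in the same direction in each comparison but that of the trap line with wild-type, where Timp2 was higher and Timp1 and Timp3 lower. Timp1, a soluble inhibitor induced by growth factors, lay at 13.60 and 13.61 in wild-type, 13.16 and 13.13 in the trap line, 12.42 and 12.47 in the exon 2 mutant and 10.03 and 10.05 in the Hprt knockout. Timp2, which besides its inhibitory role links Mmp14 to the Mmp2 precursor, lay at 13.08 and 13.05 in wild-type, 13.70 and 13.61 in the trap line, 12.41 and 12.50 in the exon 2 mutant and 7.92 on both Hprt knockout arrays. Against their own wild-type levels, Timp1 was at -3.56 and Timp2 at -5.15 in the Hprt knockout. Timp3, an inhibitor that binds to the matrix, lay at 11.27 and 11.22 in wild-type, 10.29 and 10.30 in the trap line, 8.41 and 8.55 in the exon 2 mutant and 7.63 and 7.52 in the Hprt knockout. For all 3 inhibitors every neighbouring pair in the order of levels differed past the threshold. Of all tested genes 41.1% passed between the trap line and wild-type and 61.2% between the exon 2 mutant and the Hprt knockout. The share was 55.6% between the exon 2 mutant and wild-type, neighbours for Timp2. It was 49.2% between the exon 2 mutant and the trap line, neighbours for Timp1 and Timp3. How many genes passed in every such pair was not counted.

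The comparison of the trap line against the Hprt knockout was made because both carry the Hprt label and the former alone the gene trap. All 8 members other than Mmp1a rose, where 68.4% of all tested genes passed, 26.6% higher and 41.8% lower (33.9% and 30.7% with cyclic loess scaling), and 15.2% passed with at least a 2-fold difference in either direction. Mmp13 was at least 61.1-fold higher, with the filter level as the Hprt knockout signal. The bound was not tested, and the adjusted p of 1.35e-07 from limma belongs to the fitted difference of 7.28. Mmp3 rose 128-fold (adjusted p = 2.50e-09) and Timp2 by 5.73 ± 0.06 (adjusted p = 4.60e-09), or 53.1-fold. Mmp1a was at least 11.3-fold higher, and without either trap array it failed the filter. Mmp10, Mmp14 and Mmp2 rose by 3.76, 3.71 and 3.66, and Timp1 and Timp3 by 3.11 and 2.72. The fibroblast markers rose in 27 of 27 cases in this comparison, with a median of 4.07, or 3.91 with Lum, Dpt, Ogn and Fap set to the filter level in the Hprt knockout. On that scale the highest marker, Lum, was at 7.10 and Mmp13 at 5.93. Of 7 tested macrophage markers 5 rose and 1 fell, with a median of 0.82, or 0.60 on that scale.

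The Hprt knockout was compared with wild-type to describe the group with the Hprt mutation alone. It shares arrays with the comparison above and with both comparisons against wild-type below, so the values are set side by side. All 8 members other than Mmp1a fell, where 71.5% of tested genes passed, 46.4% higher and 25.1% lower (34.1% and 34.2% with cyclic loess scaling). These 8 were past a 2-fold difference, which 19.3% of tested genes reached. Mmp13 was at least 93.5-fold lower, with the filter level as the dim signal. That bound was not tested either, and the adjusted p of 7.58e-08 belongs to the fitted difference of -7.90. Mmp3 fell by 6.31 ± 0.05 (adjusted p = 3.18e-09). Timp2 fell by 5.15, Timp3 by 3.67, Timp1 by 3.56, Mmp14 by 3.55 and Mmp2 by 3.50. Mmp10 differed least of these, at -1.38 ± 0.16, and Mmp1a was below the filter level in both groups. All 27 fibroblast markers fell too, with a median of -4.69, or -4.65 on the scale with the filter level. Cyclic loess moved the median of all genes by -0.16 here and by 0.14 in the trap line against the Hprt knockout, and no member changed direction.

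**Figure D3:**
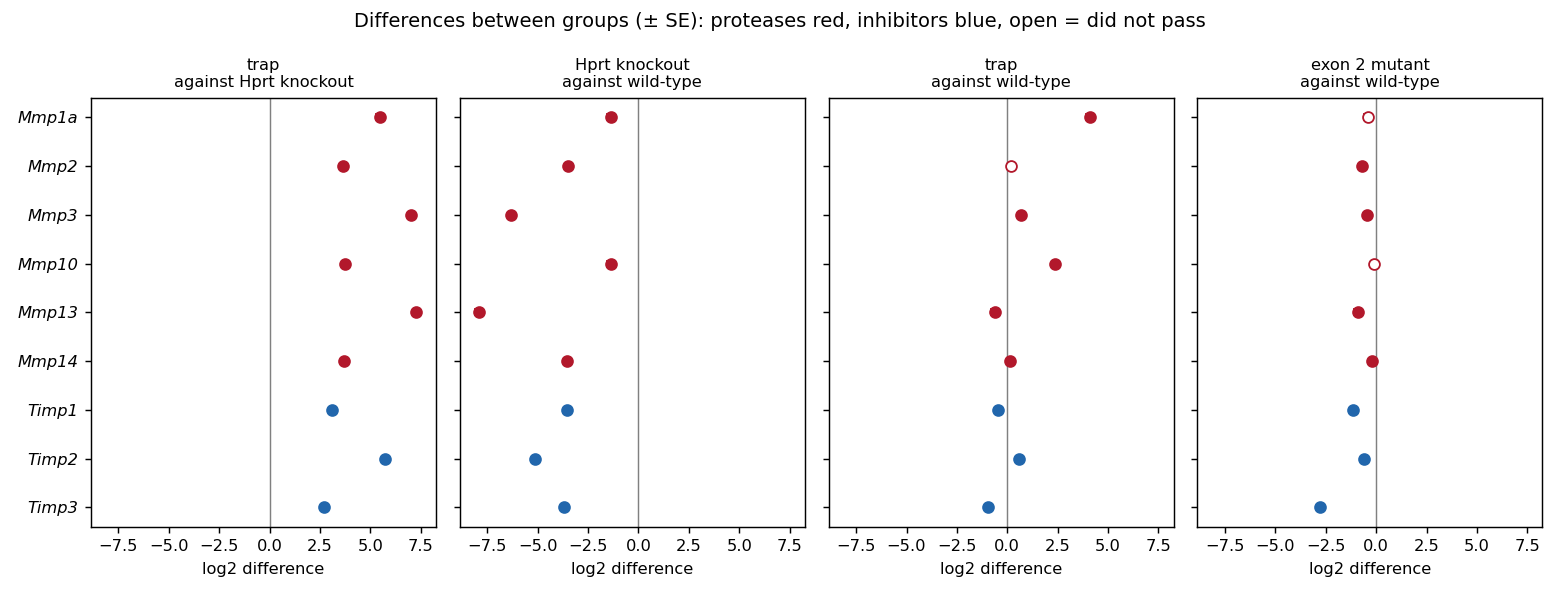
Log2 difference ± SE of each member in 4 comparisons (2 against 2 arrays), proteases in red, inhibitors in blue, open points did not pass; most error bars are smaller than the points. The 9 members all lie right of 0 in the trap line against the Hprt knockout and left of 0 in the Hprt knockout against wild-type, and spread to both sides in the trap line against wild-type. Points of Mmp1a, and of Mmp13 where the Hprt knockout enters, use signals below the filter level.

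The trap line was compared with wild-type, where the fibroblast marker signal was nearer to equal. Here 4 members besides Mmp1a rose, 3 fell and Mmp2 did not pass, where 41.1% of tested genes passed, 26.5% higher and 14.6% lower (22.0% and 18.6% with cyclic loess scaling). Mmp10 rose by 2.39 ± 0.16 (adjusted p = 7.68e-05), or 5.23-fold, and Mmp1a was at least 11.3-fold higher. Among the members other than Mmp1a, Mmp10 alone was past a 2-fold difference, which 3.42% of tested genes reached. The rise of Mmp1a was built into its selection and is not counted beside that share. Mmp3 rose by 0.68 ± 0.05 (adjusted p = 0.000125), Timp2 by 0.58 ± 0.06 (adjusted p = 0.000339) and Mmp14 by 0.16 ± 0.05 (adjusted p = 0.0406). Timp3 fell by 0.95 ± 0.07 (adjusted p = 9.32e-05), Timp1 by 0.46 ± 0.05 (adjusted p = 0.000463) and Mmp13 by 0.61 ± 0.19 (adjusted p = 0.0383). Mmp2 was 0.16 ± 0.06 higher (adjusted p = 0.0600). Leaving out any of the 4 compared arrays ended the call of Mmp13, with adjusted p of 0.0893 to 0.155, and leaving out any of the 8 arrays ended that of Mmp14, with adjusted p of 0.0508 to 0.199. Without either trap array Mmp1a failed the filter here too. Of the 27 fibroblast markers 5 rose, 12 fell and 10 did not pass, with a median of -0.18 and a highest value of 0.80. No marker rose as much as Mmp10. Summed macrophage markers were 1382 to 1391 in the trap line and 1176 to 1198 in wild-type, and of the 7 tested 2 rose, Cd68 by 0.75 and Adgre1 by 0.23, and none fell. The macrophage markers Tyrobp, Ptprc and Aif1 were below the filter level in both groups. Primitive and parietal endoderm markers rose in 3 and fell in 6 of 10 cases, with a median of -0.32.

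The loss of exon 2 from a Gtf2i allele was examined by setting the exon 2 mutant against wild-type. Of the members 7 fell, none rose, and Mmp1a and Mmp10 did not pass, where 55.6% of tested genes passed, 32.5% higher and 23.1% lower (26.6% and 29.2% with cyclic loess scaling). Timp3 fell by 2.77 ± 0.07 (adjusted p = 1.71e-06), or 6.80-fold, and Timp1 by 1.16 ± 0.05 (adjusted p = 9.74e-06), or 2.24-fold. They were the 2 members past a 2-fold difference, which 5.43% of tested genes reached. Mmp13 fell by 0.92 ± 0.19 (adjusted p = 0.00539), Mmp2 by 0.68 ± 0.06, Timp2 by 0.61 ± 0.06 and Mmp3 by 0.48 ± 0.05 (adjusted p = 0.000309). Mmp14 fell by 0.21 ± 0.05 (adjusted p = 0.00957), a call lost without the second wild-type array (adjusted p = 0.0504) and with the mean of its probe sets (-0.04, adjusted p = 0.633). Mmp10 differed by -0.09 (adjusted p = 0.672). Mmp1a was below the filter level in both groups, so its difference is not read. The fibroblast markers fell in 24 of 27 cases, with a median of -0.58 and a lowest value of -2.31. Timp3 was lower than every fibroblast marker, and 23 of the 27 lay above Timp1. Primitive and parietal endoderm markers fell in 8 of 10 cases, with a median of -0.75, or -0.66 on the scale with the filter level, and macrophage markers fell in 4 and rose in 1 of 7, with a median of -0.28. The part of these markers in the result was not tested either.

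**Figure D4:**
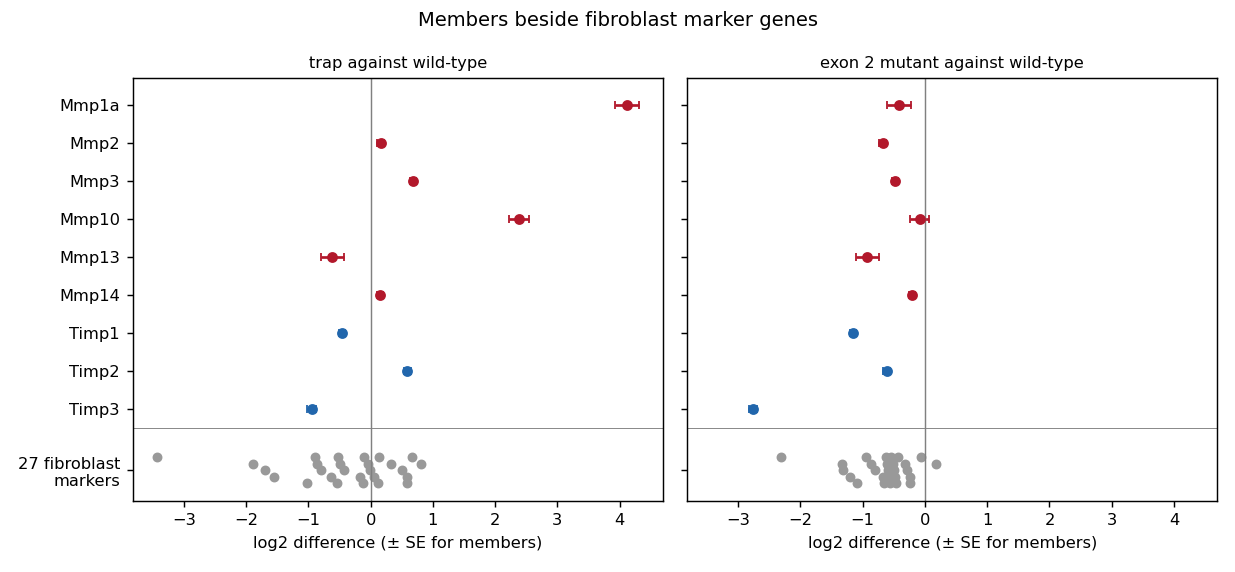
Log2 difference of the 9 members (± SE, proteases red, inhibitors blue) above the differences of 27 fibroblast markers (grey, 1 point a gene) in the trap line and in the exon 2 mutant, each against wild-type. Mmp10 at 2.39 lies right of all markers in the trap line, and Timp3 at -2.77 lies left of all markers in the exon 2 mutant. Mmp1a, whose wild-type signal is below the filter level, also lies right in the trap line, which was built into its selection.

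The exon 2 mutant was lower than the trap line for 7 of the 8 members other than Mmp1a, where 49.2% of tested genes passed, 24.5% higher and 24.7% lower. Mmp1a was at least 11.3-fold lower. Mmp10 differed by -2.47 ± 0.16 and Timp3 by -1.82 ± 0.07 (adjusted p = 9.34e-06). Timp2, Mmp3, Mmp2, Timp1 and Mmp14 differed by -1.19, -1.16, -0.84, -0.70 and -0.37. Macrophage markers were lower in 6 of 7 cases, with a median of -0.50, fibroblast markers lower in 14 and higher in 8 of 27, with a median of -0.19, and endoderm markers lower in 6 of 10. Against the Hprt knockout the exon 2 mutant was higher for all 8 members other than Mmp1a, where 61.2% of tested genes passed, 24.9% higher and 36.3% lower (32.0% and 26.6% with cyclic loess scaling), and 7 members were past a 2-fold difference, which 11.1% of tested genes reached. Of these, the gap was smallest for Timp3 (0.90 ± 0.07, adjusted p = 3.18e-05) and was 5.83 for Mmp3. All 27 fibroblast markers were higher, with a median of 4.06. The exon 2 effect minus the trap effect was below 0 and passed for all 8 members other than Mmp1a, where 69.7% of tested genes passed, 42.6% higher and 27.1% lower (32.7% and 35.2% with cyclic loess scaling), and 29.3% passed with at least a 2-fold difference.

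Mmp2, Mmp14, Timp2 and Timp3 had several probe sets, which gave a second reading on the same RNA. The 4 probe sets of Timp3 differed between the exon 2 mutant and wild-type by -2.77, -2.67, -2.40 and -1.45, from the brightest to the dimmest, and all passed (p-values here adjusted over 24552 probe sets). In the trap line against wild-type the same probe sets gave -0.95, -0.66, -0.39 and 0.06, of which the last, the dimmest, did not pass. The 5 tested probe sets of Timp2 ranged from -0.70 to -0.58 in the exon 2 mutant and from 0.48 to 1.14 in the trap line, each against wild-type, and all passed. A sixth probe set of Timp2 was below the filter level on all arrays. Mmp2 gave -0.68 and -0.73 in the exon 2 mutant, and 0.16 and 0.26 in the trap line, of which the latter passed (adjusted p = 0.00868). The probe sets of Mmp14 disagreed in the exon 2 mutant, at -0.21, 0.14 and -0.04, of which the first passed (adjusted p = 0.0166), while in the trap line they gave 0.16, 0.49 and 0.49, of which the latter pair passed.

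**Figure D5:**
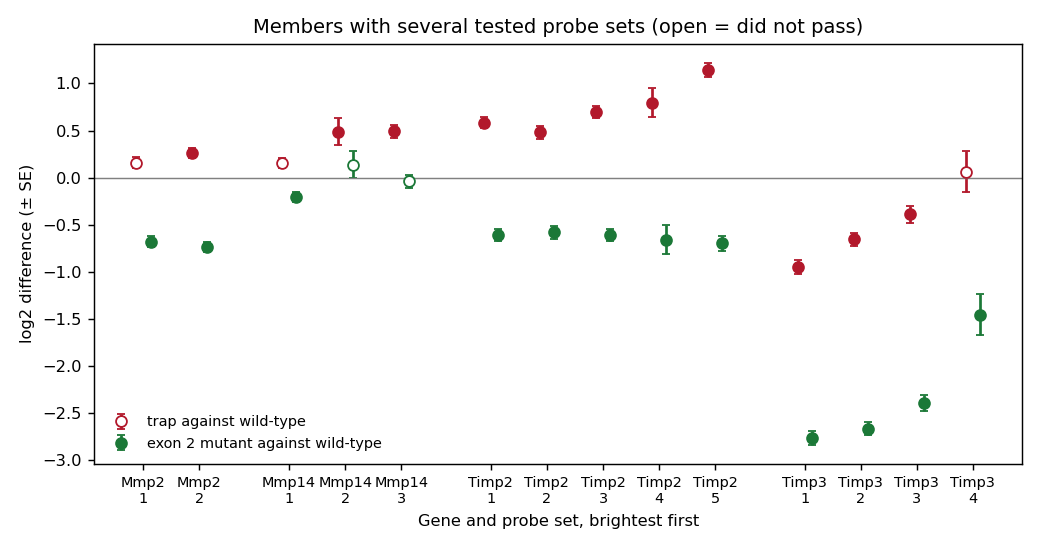
Log2 difference ± SE for every tested probe set of the 4 members with several, ordered from brightest to dimmest within a gene, in the trap line (red) and the exon 2 mutant (green) against wild-type; open points did not pass. The probe sets of Timp3 lie between -2.77 and -1.45 in the exon 2 mutant, and those of Timp2 lie above 0 in the trap line and below 0 in the exon 2 mutant.

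Other genes of matrix breakdown were followed from lists set by function, with earlier results of these data known. Of 11 other tested metalloproteinase and inhibitor genes 6 rose and 2 fell in the trap line against the Hprt knockout, where 26.6% of all tested genes rose and 41.8% fell. The list median was 1.99, or 0.88 with signals below the filter level set to it, against -0.13 for all genes. Against wild-type, where 26.5% of all genes rose and 14.6% fell, 5 rose and 3 fell in the trap line, among the former Mmp12 (1.62) and the gelatinase gene Mmp9 (1.00). Mmp1b, counted among the 6 and among the 5, passed the filter through the trap arrays alone, so its rise was built into its selection. It was at least 1.84-fold higher in the trap line in both comparisons. In the exon 2 mutant 2 rose and 4 fell, a share of calls near the 55.6% of all genes, with Mmp16 at -0.99 and Mmp23 at -0.62. Mmp1b, counted among the 4, was below the filter level in the exon 2 mutant and in wild-type. Of 16 ADAM and ADAMTS genes, a related protease family, 14 rose and 1 fell in the trap line against the Hprt knockout. Adamts1, which cleaves proteoglycans, was at 3.28 there, while the aggrecan-cleaving Adamts5 was at -1.63 in the trap line against wild-type, where 7 of the 16 rose and 6 fell. In the exon 2 mutant 3 rose and 9 fell, where 32.5% of all genes rose and 23.1% fell, with Adam19 at -0.81.

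The plasminogen activator system, whose product plasmin can remove metalloproteinase propeptides, had 7 tested genes. In the exon 2 mutant 6 fell and none rose, where 23.1% of all genes fell and 32.5% rose, with a median of -0.67 against 0.03 for all genes. Serpinb2, an inhibitor of plasminogen activators, fell to below the filter level and was at least 4.64-fold lower, the urokinase receptor gene Plaur fell by 2.16 and the urokinase gene Plau by 1.87. In the trap line against wild-type, where 26.5% of all genes rose and 14.6% fell, 1 rose and 2 fell, with Plaur at -1.45 and the tissue activator gene Plat at 0.29. Against the Hprt knockout 6 of 7 rose, where 26.6% of all genes did, and Plau was at least 18.9-fold higher. Of 12 genes for activators, surface inhibitors and clearance of the enzymes 11 rose in that comparison, and in the exon 2 mutant 8 fell and 1 rose. Thbs1, whose product thrombospondin binds Mmp2 and takes it into cells, was at -2.22 in the exon 2 mutant and -1.97 in the trap line, each against wild-type. Of 8 lysosomal and other collagen-degrading proteases 4 rose and 1 fell in the trap line against wild-type, with the cathepsin genes Ctsk at 1.11 and Ctsb at 0.86, and all 8 fell in the exon 2 mutant, with Ctsk at -0.78.

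AP-1 subunits, inducers of the proteases with their receptors, and matrix substrates completed the lists, beside the same shares over all genes. Of 9 tested AP-1 genes 5 fell and 1 rose in the trap line against wild-type, where 14.6% of all genes fell and 26.5% rose, with Fos at -1.67, Fosl2 at -1.06 and Atf3 at -0.68. In the exon 2 mutant 7 fell and 1 rose, where 23.1% of all genes fell and 32.5% rose, with Fos at -1.71, Maf at -1.28 and Fosl2 at -1.28. In the trap line against the Hprt knockout 5 rose and 3 fell, where 26.6% of all genes rose and 41.8% fell, with Fosl1 at 2.32. Of 19 inducers and receptors 8 fell and 4 rose in the trap line against wild-type, where the cytokine gene Il6 was at -2.67, Lif at -2.24 and the growth factor gene Hbegf at -2.20. In the exon 2 mutant 13 fell and 2 rose, with Lif at -2.54, Hbegf at -2.48 and Il6 at -1.95. Against the Hprt knockout 15 of 19 rose in the trap line, with the oncostatin M receptor gene Osmr at least 43.4-fold higher and the receptor gene Tgfbr2 at 4.58. Of 15 matrix substrates 10 fell and 1 rose in the trap line against wild-type, with the collagen gene Col1a1 at -1.22. In the exon 2 mutant 14 of 15 fell, with Lama1 at -1.50 and Tnc at -1.28, and in the trap line against the Hprt knockout 12 rose, with Col3a1 at 4.87. The median of the substrates in the trap line against wild-type was -0.33, beside 0.05 for all genes.

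For each member the tested genes with the nearest profile were found by the root-mean-square difference of centred log2 values over the 8 arrays. Mmp1a was nearest to the leukocyte membrane gene Cd53 (0.52) and to S100a8 (0.56), a gene of myeloid cells, and both were highest in the trap line, at 9.55 and 8.17. The profile of Mmp1a rests on signals below the filter level in 3 groups. Mmp10 was nearest to the Wnt antagonist gene Dkk2 (0.21), the chemokine gene Ccl12 (0.23) and Bmp2 (0.29). Mmp3 was nearest to the proteoglycan gene Dcn (0.16) and to Agtr2 (0.18), and Mmp13 to the interferon-induced genes Ifit1 (0.24) and Ifi202b (0.30). Mmp2 was nearest to Emp3 (0.06), Mmp14 to Cd47 (0.11), Timp1 to Kif26b (0.05) and Timp2 to Tnfaip2 (0.18). Timp3 had no gene closer than 0.35, which was Atp8b1. That gene averaged 7.55 in wild-type, 6.40 in the trap line, 5.44 in the exon 2 mutant and 3.87 in the Hprt knockout. In the Hprt knockout, Mmp13 and the named genes Cd53, S100a8, Dkk2, Ccl12, Agtr2, Ifit1, Ifi202b, Kif26b and Atp8b1 averaged below the filter level. Likenesses that involve them rest partly on such signals.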

How the data were processed

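Total RNA of 8 mouse embryonic stem cell samples was hybridised to Affymetrix arrays. The values are log2 intensities deposited by the authors, made with RMA per the submitters' processing notes, which corrects background, normalizes arrays by quantiles and summarises probes. No version is given in the sources used here, and detection calls were not used. Quantile normalization hides a shift of most genes.

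Of 45101 probe sets 34945 had a single symbol in the platform annotation. The brightest probe set stood for each of 18193 genes. Genes above the 40th percentile on at least 2 arrays were tested, 13812 in all. A limma 3.58.1 model (R 4.3.3) of 4 group means was fitted to the 8 arrays, with 4 residual degrees of freedom, a two-sided test and a Benjamini-Hochberg threshold of 0.05. It was tested on simulated data. Where both arrays of a group were below the filter level, that level stood in for the group, as a bound. With 2 arrays in each of 2 groups, the smallest exact permutation p is 0.333. Alternatives changed the probe set, filter, scaling, variance model, arrays or replicate block.

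Members and lists were chosen with earlier results of these data known. The rule named all members and, per further list and comparison, up to 3 called genes with the largest difference and separate arrays. The fibroblast list shares Fap, Pdgfra and Pdgfrb with other lists.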

Additional observations from a re-analysis of the deposited data

Results flagged for a closer look

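The effect of the exon 2 mutation (exon 2 mutant minus wild-type) and that of the trap (trap minus Hprt knockout) differed for the 8 members other than Mmp1a by limma's test of the difference itself, where 27.1% of tested genes were called lower in it (35.2% with cyclic loess scaling). The exon 2 effect minus the trap effect was -8.21 for Mmp13 (-6.86 with the filter level as its Hprt knockout signal), -7.47 for Mmp3, -6.34 for Timp2, -5.49 for Timp3, -4.34 for Mmp2, -4.27 for Timp1, -3.92 for Mmp14 and -3.85 for Mmp10, with adjusted p from 1.76e-08 to 6.55e-06. Mmp1a was above the filter level in the trap line alone, so its difference was built into its selection and is not given. Both effects have their own control, and the Hprt knockout had the lowest mean of each of these 8. The 27 fibroblast markers were also lower in this difference, 27 of 27, with a median of -4.79, or -4.69 with signals below the filter level set to it, and their part in it was not tested.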

How the results depend on the processing

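No member changed direction under any alternative. Testing every probe set raised the number of calls to 12042 for the exon 2 mutant against wild-type, 15481 for the trap line against the Hprt knockout, 16487 for the Hprt knockout against wild-type, 8887 for the trap line against wild-type, 13820 and 10792 for the exon 2 mutant against the Hprt knockout and against the trap line, and 15941 for the difference of both effects, since 24552 probe sets were tested. Leaving out each array in turn, 5 to 7 members passed in the trap line against wild-type, 6 to 8 in the exon 2 mutant against wild-type, 7 to 9 between the exon 2 mutant and the trap line, and 8 to 9 in each of the other comparisons and in the difference of both effects. These counts include Mmp1a. Without either trap array Mmp1a no longer passed the filter and was not tested. Cyclic loess ended the call of Mmp14 between trap and wild-type arrays (0.08, adjusted p = 0.253). Testing every probe set ended it too (adjusted p = 0.0621), as did the probe set with the largest spread (0.0584). The same held with no filter on low values (0.0771) and with only the compared arrays (0.0769). Without that filter Mmp13 also lost its call between trap and wild-type arrays (adjusted p = 0.0530). Mmp2 in the trap line against wild-type passed in 5 of the other settings, with values up to 0.26. With the replicate number as a block 7, 9, 9 and 7 members passed in the first 4 comparisons named above. All but the first of these counts include Mmp1a, whose difference was built into its selection or lay below the filter level. The block changed no member call but that of Mmp14 between trap and wild-type arrays (adjusted p = 0.0738). Same-numbered arrays did not deviate together, with r from -0.276 to 0.175 over the 6 pairs of groups, so the numbers pair nothing. For the difference of both effects the fit with only the compared arrays is the same as with all 8 arrays and was not run. With 2 arrays a group, the number of arrays limits the precision, and signals under the filter level have no reliable order.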
